A study of Homo sapiens with 6 samples.

Results

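GLIDR and BX088651.4 are a pair of long noncoding RNA (lncRNA) genes on chromosome 9 whose transcripts are near copies of each other. Their members were the annotated rows of the authors' table whose symbol, without its isoform number, equalled 1 of these 2 gene names. That gave 4 transcripts of 2 genes, out of 1437 transcripts in the table, of which 688 from 602 genes carried an Ensembl identifier. The members are GLIDR-202 (ENST00000625350), GLIDR-201 (ENST00000618092), the longer BX088651.4 transcript (ENST00000435586, called BX088651.4 long) and the shorter one (ENST00000428895, called BX088651.4 short). The study compared lncRNA levels by RNA sequencing in HBE, a normal lung epithelial line that the labels also spell HEB, and A549, a lung adenocarcinoma line, with 3 samples of each. HBE was kept in RPMI-1640 and A549 in DMEM, both with fetal bovine serum, streptomycin and penicillin, so line and medium cannot be told apart. No treatment or genetic change is given for either line, and each group stands for 1 line.

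GLIDR is short for glioblastoma down-regulated RNA. A lncRNA is transcribed and often spliced like a messenger RNA but is not known to be translated, and many are proposed to act by binding proteins or by pairing with microRNAs. The title of the study places GLIDR upstream of miR-342-5p and PPARGC1A, a transcriptional coactivator of mitochondrial genes, in cisplatin resistance. Both genes lie in the region around the centromere of chromosome 9, which is known for large recent duplications, so several genes there exist as similar copies.

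Library sizes recovered from the table were 49371791 to 57664810 counts, and 1 count was worth 0.0173 to 0.0203 CPM (the count scaled by library size). To describe the lines, the airway epithelial host gene MIR205HG (1 of 2 listed markers in the table) summed to 76.2 to 213 CPM in HBE. It had no count in A549. Alveolar or club markers, with 2 of 5 genes in the table, summed to 2.40 to 6.64 CPM in HBE and 0.357 to 0.902 CPM in A549. Mesenchymal markers (FENDRR and MIR100HG, 2 of 5 genes) summed to 0.943 to 1.35 CPM in HBE and 0.243 to 1.05 CPM in A549. Neural or glial markers (LINC00461, MIAT and OLMALINC, 3 of 7 genes) summed to 1.07 to 3.26 CPM in HBE and 3.19 to 4.0 CPM in A549. In both lists the sums of the lines overlapped. A sum does not show whether the genes of a list went the same way. Of the 5 blood or endothelial markers 0 were in the table. The authors selected it for transcripts that differ between the lines, so a marker outside it may be unmeasured or only unselected. The part of these differences between the lines in the results was not tested.

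GLIDR-202 (chr9:39807361-39810063, minus strand, GRCh38) and GLIDR-201 (chr9:39807381-39810058) each have 2 exons and are 2588 and 2581 bases long. They differ at their ends and in where exon 2 begins: in GLIDR-201 it starts 18 bases earlier. BX088651.4 long (chr9:42566679-42569353, minus strand, 2579 bases) also has 2 exons and carries the same 18 bases. BX088651.4 short (chr9:42566993-42569310, 1479 bases) lacks the 18 bases and has 3 exons, because 725 bases inside exon 2 of the longer form are removed. The junction of exons 1 and 2 is shown for the 4 members, because it is where the forms part, with 40 bases on each side and the 18 extra bases in capitals. These bases end in a run of T followed by CCAG, and are the same in both genes. The stretches span chr9:39809576-39809770 in GLIDR and chr9:42568875-42569068 in BX088651.4, intron included (GENCODE 29 transcripts, minus strand).
GLIDR-201: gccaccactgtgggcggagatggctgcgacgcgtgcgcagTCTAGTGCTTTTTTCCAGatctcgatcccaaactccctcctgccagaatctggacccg
GLIDR-202: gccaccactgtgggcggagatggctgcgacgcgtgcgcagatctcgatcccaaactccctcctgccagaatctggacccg
BX088651.4 long: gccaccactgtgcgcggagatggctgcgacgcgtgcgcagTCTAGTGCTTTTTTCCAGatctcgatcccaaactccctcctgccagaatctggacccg
BX088651.4 short: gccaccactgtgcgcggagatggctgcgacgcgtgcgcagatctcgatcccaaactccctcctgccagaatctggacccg

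The second splice junction of BX088651.4 short joins exons 2 and 3 (chr9:42568020-42568824, intron included) and has no counterpart in the other members. It does not set the genes apart, since GLIDR-203, a GLIDR transcript outside the table, also has 3 exons. GLIDR-203 was 97.6% identical to BX088651.4 short over 1480 aligned bases. The last base of exon 2 and the first of exon 3 are in capitals.
BX088651.4 short: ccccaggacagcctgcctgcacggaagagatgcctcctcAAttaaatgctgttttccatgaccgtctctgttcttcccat

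GLIDR-201 and BX088651.4 long, the members with the same exon layout, were 97.7% identical over 2577 aligned bases. They differed by 58 substitutions, 24 of them transitions, and by 2 gaps of 1 base each. The 100-base window with the most substitutions held 6 of them, and is shown for both genes with the differing bases in capitals (chr9:39807590-39807689 and chr9:42566888-42566987). Counted from 1 at the 5′ end of GLIDR-201, with the GLIDR base first, these are G2302A, G2346A, T2362G, C2365A, T2370G and G2372T.
GLIDR-201: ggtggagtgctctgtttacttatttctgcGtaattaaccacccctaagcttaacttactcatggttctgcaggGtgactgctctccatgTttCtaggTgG
BX088651.4 long: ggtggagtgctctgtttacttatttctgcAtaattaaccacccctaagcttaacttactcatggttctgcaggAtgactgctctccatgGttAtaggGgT

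The longest stretch with no difference between these 2 transcripts was 222 bases (chr9:39808719-39808940 in GLIDR), and a read inside it has no base that tells the genes apart. It is shown in lower case.
GLIDR-201: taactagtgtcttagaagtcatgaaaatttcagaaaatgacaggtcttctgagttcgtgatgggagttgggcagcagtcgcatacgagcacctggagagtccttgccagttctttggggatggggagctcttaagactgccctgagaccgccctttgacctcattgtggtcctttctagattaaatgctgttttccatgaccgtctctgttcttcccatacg

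GLIDR and BX088651.4 were not each other's nearest copies. GLIDR-202 was 99.3% identical to a transcript of AL512625.1 (ENST00000305709) and 99.1% identical to one of AL590399.1 (ENST00000377518), over 2541 bases each, with 18 and 22 substitutions. BX088651.4 short was 99.7% identical to a transcript of BX005266.2 over its whole length of 1479 bases, with 5 substitutions. These 3 further lncRNA genes lie on the far side of the centromere, AL590399.1 at chr9:62374128-62376836, BX005266.2 at chr9:62532337-62534724 and AL512625.1 at chr9:62897449-62900104. Their levels were not analysed here. BX088651.4 is therefore a copy of GLIDR in sequence, within a family of 5 genes in GENCODE release 29.

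How far a read could separate the copies was measured with exact windows along each transcript, the read length being not given in the sources used here. Of the 100-base windows of GLIDR-202, 11% recurred on the same strand in BX088651.4, and for GLIDR-201 and BX088651.4 long the share in the other gene of the pair was 11.1%. For BX088651.4 short it was 3.19%. With 150-base windows these shares were 3.90%, 3.91%, 3.91% and 0%, and with 50-base windows 28.9%, 29.7%, 29.7% and 22.0%. Many more windows recurred in some other gene on either strand: 63.3% for GLIDR-202, 62.8% for GLIDR-201, 67.3% for BX088651.4 long and 84.7% for BX088651.4 short at 100 bases. BX005266.2 alone held 56.2% of the 100-base windows of BX088651.4 long and 75.7% of those of BX088651.4 short. Sequence shared between GLIDR and BX088651.4 was thus the smaller part of what each shared with the whole family.

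**Figure D1:**
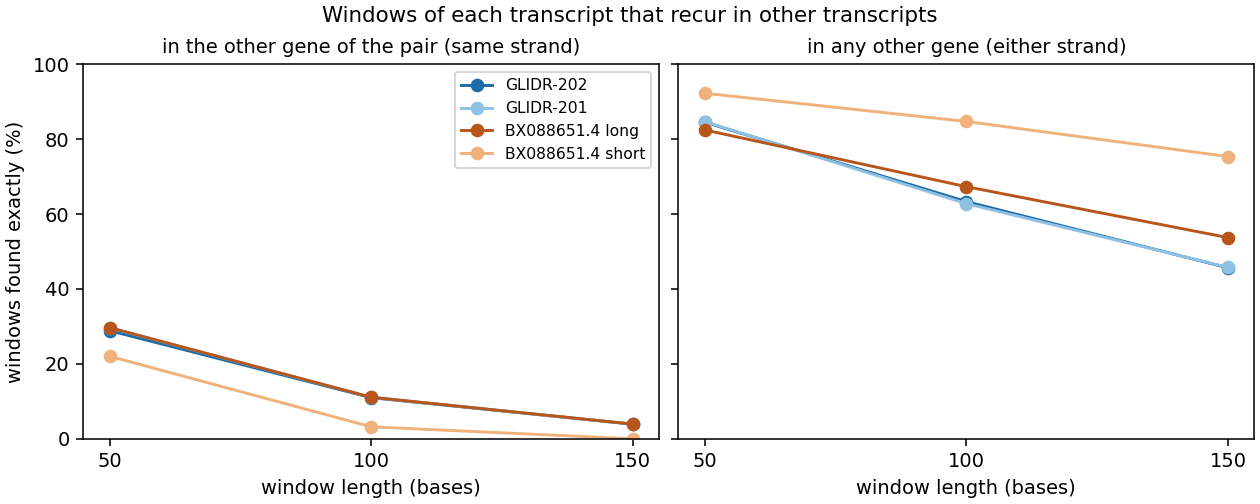
Share of windows of each member that recur exactly in other GENCODE 29 transcripts (y axis, percent) against window length (x axis, bases), in the other gene of the pair on the left and in any other gene on the right. At 100 bases the members lie between 3.19% and 11.1% on the left and between 62.8% and 84.7% on the right.

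Isoforms of 1 gene were harder to separate than the 2 genes. None of the 100-base windows of GLIDR-202 was unique to that transcript, and 99.2% recurred in another GLIDR isoform. GLIDR-201 had 112 unique windows of 100 bases, or 4.51%. BX088651.4 long had 600, or 24.2%, and BX088651.4 short had 0. On the opposite strand, the processed pseudogene BX664615.1 overlaps 289 bases of exon 1 of GLIDR-202 and GLIDR-201, and BX088651.1 overlaps 287 and 282 bases of exon 1 of BX088651.4 long and BX088651.4 short. With the strand setting of the counting not given in the sources used here, reads of these pseudogenes cannot be told apart from the members.

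**Figure D2:**
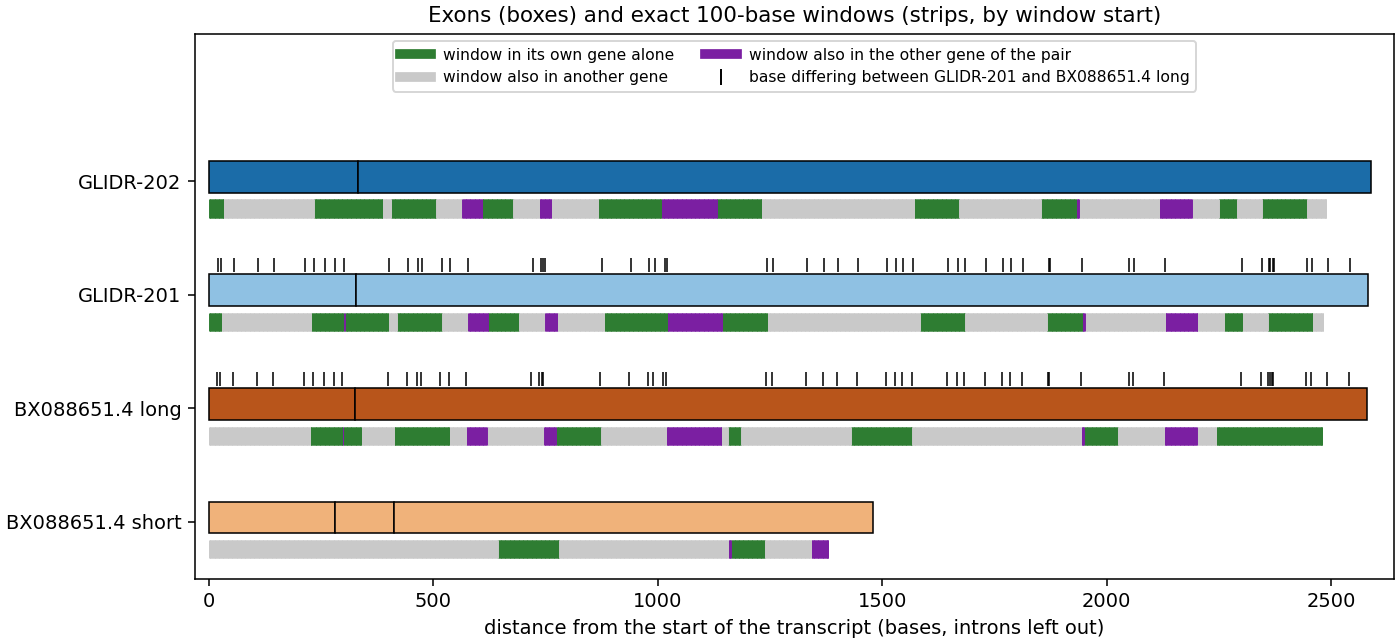
Exons of the 4 members as boxes along the transcript (x axis, bases from its start, introns left out), with a strip below each that colours every 100-base window by its start position. Green windows occur in the gene itself alone, purple ones also in the other gene of the pair and grey ones in other genes, and black ticks mark the bases that differ between GLIDR-201 and BX088651.4 long. Differences are spread over the whole length, and the widest gap between ticks is the identical stretch of 222 bases.

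All 4 members were higher in A549 than in HBE. GLIDR-202, the most abundant member in A549, was counted 0, 22 and 14 times in HBE (replicates 1, 2 and 3, the order used throughout) and 189, 221 and 175 times in A549. These are 0, 0.424 and 0.284 CPM in HBE and 3.38, 3.99 and 3.03 CPM in A549. The highest HBE sample lay well below the lowest A549 sample, and the lines did not overlap. The log2 fold change was 3.87 with a standard error (SE) of 0.81, and the adjusted p was 7.88e-05 (edgeR quasi-likelihood test, Benjamini-Hochberg). It was 3.28 without HBE replicate 1, the sample at 0, and 4.62 without HBE replicate 2. With DESeq2 size factors it was 5.35 and with column totals 5.24, and limma on log2(FPKM + 0.1) gave 3.02. In bulk RNA, fewer expressing cells and less RNA per cell cannot be told apart.

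BX088651.4 long, the long form of the copy, was counted 6, 12 and 24 times in HBE and 87, 149 and 159 times in A549, or 0.107, 0.231 and 0.486 CPM against 1.55, 2.69 and 2.76 CPM. Here too the lines did not overlap, and unlike GLIDR-202 it had counts in every HBE sample. The log2 fold change was 3.08 (SE 0.71), with an adjusted p of 0.000224 by the same edgeR test, and it was 3.77 without HBE replicate 3. It was 4.56 with DESeq2 size factors, 4.19 with column totals and 2.33 with limma on log2(FPKM + 0.1). The order of the HBE samples differed between the genes, with replicate 2 highest for GLIDR-202 and replicate 3 highest for BX088651.4 long. In A549 the lowest sample was replicate 3 for GLIDR-202 and replicate 1 for BX088651.4 long.

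GLIDR-201 and BX088651.4 short had no count in any HBE sample. In A549 replicates 1, 2 and 3, GLIDR-201 had 7, 9 and 22 counts (0.125, 0.162 and 0.382 CPM), and BX088651.4 short had 15, 10 and 33 counts (0.268, 0.180 and 0.572 CPM). Replicate 3 was the highest sample for both, while it was the lowest for GLIDR-202. Set against a limit of 3 counts over the HBE samples, or 0.0191 CPM, the A549 level was 11.8-fold higher for GLIDR-201 and 18-fold higher for BX088651.4 short. As bounds of the fold these allow for counting error in HBE alone, not for error in the A549 counts. Without A549 replicate 3 these bounds were 7.54-fold and 11.8-fold. The adjusted p values were 6.53e-05 and 7.15e-05 by the same edgeR test.

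**Figure D3:**
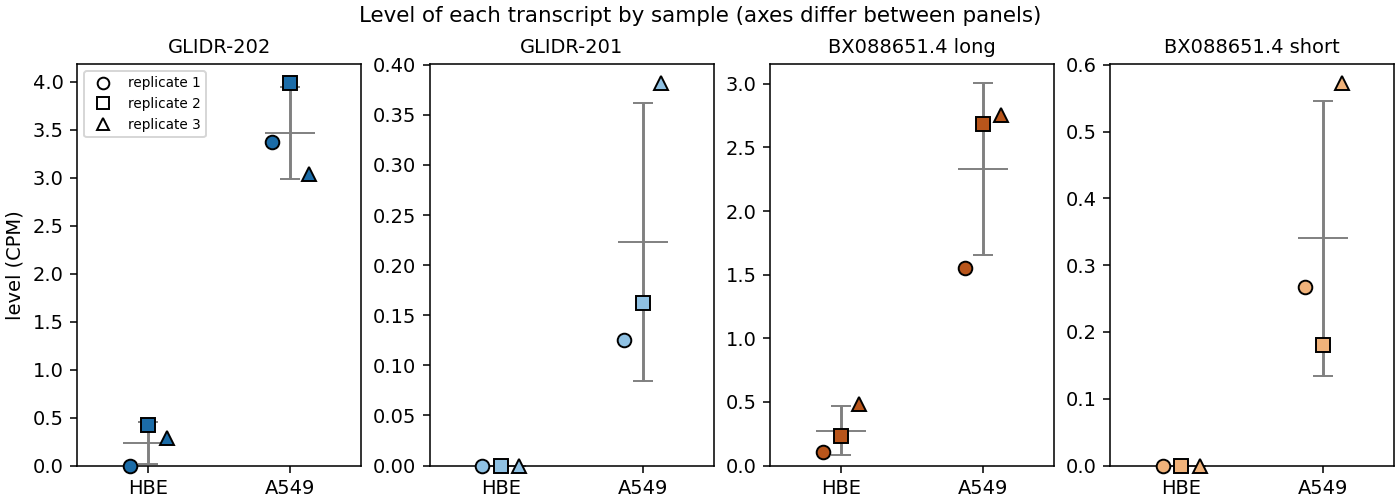
Level of each member (y axis, CPM, with its own scale in each panel) in HBE and A549, with 1 symbol per sample and the mean with its SD in grey (n = 3 each). GLIDR-202 stands at 3.03 to 3.99 CPM in A549 and at most 0.424 CPM in HBE, and GLIDR-201 and BX088651.4 short are at 0 in every HBE sample.

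The authors had selected the table for transcripts that differ between these same samples, so the calls are not independent evidence. Of all 1437 transcripts, 99.9% passed the threshold in either direction and 47.6% passed it with a higher level in A549, as did 43.6% of the annotated ones. Ranges that did not overlap were found for 99.2% of transcripts, and for 47.3% with A549 higher. No count in any HBE sample was found for 28.6% of all transcripts and for 2 of the 4 members. Of the 684 transcripts called higher in A549, 273 had a count in HBE, as did GLIDR-202 and BX088651.4 long. With transcripts absent from HBE set at their bound, the median log2 fold change was 3.72 over the 4 members and 3.70 over the 684 transcripts called higher in A549. Over all 1437 transcripts the fitted median was -2.00. In the authors' deposited table the log2 fold changes were 3.99 for GLIDR-202, 3.28 for BX088651.4 long, 6.90 for GLIDR-201 and 7.43 for BX088651.4 short. The p-values in the authors' deposited table were 0.000191, 2.44e-06, 0.00286 and 0.00105 in that order.

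Levels were compared between members per length, on the FPKM scale of the authors. In A549, GLIDR-202 had 1.34 ± 0.186 FPKM and BX088651.4 long had 0.899 ± 0.263 FPKM (SD, n = 3 each), and their samples did not overlap, at 1.17 to 1.54 against 0.596 to 1.07. BX088651.4 short followed with 0.225 ± 0.142 FPKM and GLIDR-201 with 0.0825 ± 0.0519 FPKM (SD, n = 3 each). These 2 overlapped, at 0.119 to 0.386 and 0.0474 to 0.142 FPKM. In HBE the order of the first 2 was not resolved, with 0.0905 ± 0.0827 FPKM for GLIDR-202 and 0.103 ± 0.0742 FPKM for BX088651.4 long (SD, n = 3 each). Among the 688 annotated transcripts of the table, ordered by mean FPKM, GLIDR-202 moved from rank 446 in HBE to rank 75 in A549, and BX088651.4 long from rank 438 to rank 107. The median over the 300 annotated transcripts called higher in A549 was 0.398 FPKM in that line.

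Because near copies can share reads, the 4 members were also summed. The summed count was 6, 34 and 38 in HBE and 298, 389 and 389 in A549, or 0.107, 0.656 and 0.770 CPM against 5.32, 7.02 and 6.75 CPM. The lines did not overlap, and the lowest A549 sample was 6.91 times the highest HBE sample. The mean went from 0.511 ± 0.354 CPM in the HBE samples to 6.36 ± 0.910 CPM in the A549 samples (SD, n = 3 each), 12.5-fold or 3.64 on the log2 scale. On that scale it was 4.81 with column totals and 5.14 with DESeq2 size factors in place of the recovered library sizes. GENCODE release 29 lists 5 transcripts of GLIDR, of which only 2 were in the selected table, and 2 of BX088651.4, both in it. By gene, the sum of its members alone was 15.6-fold higher in A549 for GLIDR and 9.73-fold higher for BX088651.4. Single HBE samples moved both values: GLIDR stood at 10.4-fold without HBE replicate 1 and 26-fold without replicate 2, and BX088651.4 at 15.8-fold without replicate 3. The difference between the genes was not tested. The sum is the same however reads were divided among the 4 members. It is not if reads were traded with the 3 other genes of the family or with GLIDR transcripts outside the table. The same holds for the 749 transcripts without an Ensembl identifier, whose sequences were not compared here. No p is given for the sum, since its parts were chosen with the results known.

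**Figure D4:**
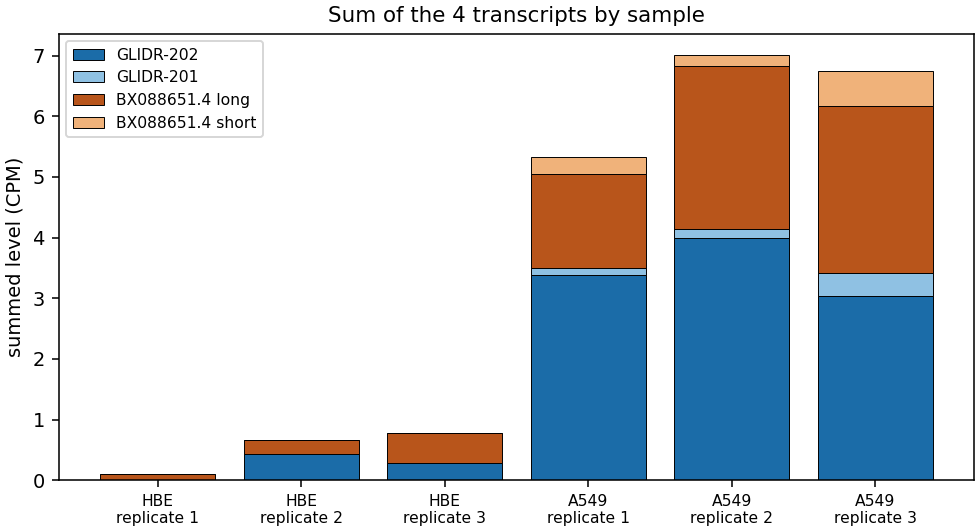
Summed level of the 4 members (y axis, CPM) in each sample, stacked by transcript. The A549 samples reach 5.32 to 7.02 CPM and the HBE samples 0.107 to 0.770 CPM, and HBE replicate 1 holds BX088651.4 long alone.

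Whether the pair kept the same ratio in both lines was asked with the share of GLIDR-202 in the counts of GLIDR-202 and BX088651.4 long. In A549 the share was 68.5% (189 of 276 counts, exact 95% interval 62.6% to 73.9%), 59.7% (221 of 370, 54.5% to 64.8%) and 52.4% (175 of 334, 46.9% to 57.9%) in replicates 1, 2 and 3. In HBE it was 64.7% in replicate 2 (22 of 34 counts, 46.5% to 80.3%) and 36.8% in replicate 3 (14 of 38, 21.8% to 54.0%). HBE replicate 1 had 0 of 6 counts, which allows a share of up to 50%. The HBE shares spread more widely than the A549 shares and enclosed 2 of the 3 A549 values. The mean was 60.2% ± 8.05 in A549 and 33.8% ± 32.5 in HBE (SD, n = 3 each), a difference of 26.4 percentage points. The difference did not pass the exact permutation test over samples (two-sided p = 0.3, the smallest possible being 0.1). With 3 samples in each line this test cannot fall below 0.05 whatever the counts, so it does not show that the ratio was the same in both lines. The difference was 9.43 points without HBE replicate 1 and 41.8 points without HBE replicate 2.

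The 2 low members were followed as a share of the members of their gene, a description chosen after their values were seen. GLIDR transcripts outside the table do not enter these shares. Within GLIDR, the form with the 18 extra bases took 7 of 196, 9 of 230 and 22 of 197 counts in A549, or 3.57%, 3.91% and 11.2%. The exact 95% intervals were 1.45% to 7.22%, 1.80% to 7.30% and 7.13% to 16.4%, and that of replicate 3 met the others at its lower end. In HBE it was 0 of 36 counts over the samples with any, which allows a share of up to 8.33%. An equal share in both lines therefore lies within what the HBE counts allow. Within BX088651.4, the 3-exon form took 15 of 102, 10 of 159 and 33 of 192 counts in A549, or 14.7%, 6.29% and 17.2%. The exact 95% intervals were 8.47% to 23.1%, 3.06% to 11.3% and 12.1% to 23.3%. In HBE it was 0 of 42 counts over the samples together, which allows a share of up to 7.14%. This pooled limit is below 2 of the 3 A549 samples and above replicate 2. By single HBE sample the limits were 50%, 25% and 12.5%. The difference between the lines was not tested. In BX088651.4 the 2-exon form with the 18 bases took the remaining counts, whereas in GLIDR the 2-exon form without them did. GENCODE release 29 lists no 2-exon BX088651.4 transcript without the 18 bases, so use of the 2 starts of exon 2 cannot be compared between the genes from these rows.

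The members were searched for matches to miR-342-5p, the microRNA in the study's title, because pairing with a microRNA is usually sought through its seed, bases 2 to 8, shown in capitals in the RefSeq sequence (GRCh38.p14, chr14:100109673-100109693, plus strand).
hsa-miR-342-5p: aGGGGUGCuaucugugauuga
The complement of the whole seed, GCACCCC, occurred in 0 of the 4 members, on the transcript strand. Of 2078 GENCODE 29 lncRNA transcripts of 2000 to 3000 bases, 13.5% held it. The shorter complement of bases 2 to 7, CACCCC, occurred once in GLIDR-202, GLIDR-201 and BX088651.4 long and in 50.3% of those lncRNA transcripts. In each of the 3 it was followed by T, the complement of the first base of the microRNA. No background share was taken for the match with this T. The match lies in exon 2, at the same aligned place in both genes, and is shown in capitals with 12 bases on each side. The stretches shown span chr9:39807634-39807663 and chr9:42566932-42566961.
GLIDR-202: tgcgtaattaacCACCCCtaagcttaactt
BX088651.4 long: tgcataattaacCACCCCtaagcttaactt
BX088651.4 short ends before this place. A match is a description of letters and its lack says nothing about binding. PPARGC1A, EVL (the host gene of miR-342) and MIR342 were not analysed here.

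Over the 6 samples, GLIDR-202 and BX088651.4 long had a Pearson r of 0.957 on log2(CPM + 0.5), and GLIDR-201 and BX088651.4 short had 0.978. Transcripts of the same gene had lower values, 0.810 for the GLIDR pair and 0.869 for the BX088651.4 pair, as did GLIDR-202 with BX088651.4 short (0.821) and GLIDR-201 with BX088651.4 long (0.894). These points share their libraries and fall into 2 lines, so r carries the distance between the lines. GLIDR-201 and BX088651.4 short had no count in HBE and at most 0.382 and 0.572 CPM in A549, near the added 0.5. Values of r with these 2 members therefore rest on few counts and do not rank genes against isoforms. Among 285 annotated transcripts of other genes that averaged 50 counts or more in 1 of the lines, DHRS4-AS1-205 was most alike GLIDR-202 (r = 0.995, 6 samples). It was counted 116, 177 and 158 times in HBE and 446, 558 and 496 times in A549, so replicate 2 was the highest sample in both lines, as for GLIDR-202. Transcripts of AC068473.5 (ENST00000616428), AC090517.5 (ENST00000560587), AC007996.1 (ENST00000620414) and AP001362.2 (ENST00000648185) followed with r of 0.993, 0.993, 0.992 and 0.986. All 5 passed the same edgeR test with A549 higher, at log2 fold changes of 1.62, 2.39, 2.79, 4.05 and 2.90 in that order, and none lies on chromosome 9.

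On chromosome 9, the members were the only annotated transcripts of the table that start between 38 and 72 megabases. The nearest others were a transcript of AL133410.1 (ENST00000431981, chr9:35772311-35790432) on one side and one of LINC01504 (ENST00000451596, chr9:72305430-72315464) on the other. AL133410.1 was counted in A549 alone, 26, 25 and 50 times. LINC01504 was counted 0, 6 and 6 times in HBE and 70, 26 and 32 times in A549. Both were higher in A549, as were the members and 43.6% of all annotated transcripts of the table. Of the 23 transcripts of chromosome 9 that are not members, 5 were higher and 18 lower in A549. All 4 members kept a higher level in A549 under every scaling, test and left-out sample that was run and could be fitted. Because the authors selected the table on these same samples, this is not independent evidence.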

How the data were processed

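Total RNA of 3 HBE and 3 A549 samples was made into mRNA libraries and sequenced, per the labels' protocols. The submitters' processing notes name HISAT2, StringTie, DESeq2 and GRCh38, with no version or role. The deposited table holds, per the file headers, each transcript's estimated count and FPKM in every sample, and the authors' log2 fold change and p-value, with any adjustment not given in the sources used here. The labels do not say whether samples of a line were separate cultures, and p-values then cover the spread between these samples alone, which may be technical.

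Library sizes were solved from estimated count, FPKM and GENCODE release 29 transcript length, using transcripts with at least 100 counts. The relation held within 1 count for 99.4% to 99.8% of nonzero annotated values. The estimated counts, whole numbers as deposited, were tested over all 1437 transcripts with edgeR 4.0.16 in R 4.3.3, with these sizes as the only scaling and no filter. The test was checked on simulated counts. An adjusted p under 0.05 was a call. The SE was back-calculated, as the absolute log2 fold change over the square root of the test's F statistic. Limits for a count of 0 use 3 counts, and these and the exact binomial 95% intervals cover counting error only. Sequences were compared with BLAST+ 2.17.0. Alternatives used limma 3.58.1 and DESeq2 1.42.0.

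The members, gene lists and the rule for named transcripts were chosen with earlier results of these data known. The rule took the members, rows that match a member at 97% identity or more over 50% of either length (members alone), up to 6 other transcripts between 38 and 72 megabases of chromosome 9 (there were 0), the 5 most alike GLIDR-202, and the genes of the title. Transcripts without an Ensembl identifier were not compared in sequence, so the match holds for annotated ones alone. The transcripts of AL133410.1 and LINC01504 fall outside the rule and were chosen after their values were seen. Samples of equal number in the 2 lines did not deviate together, with correlations of -0.042 to 0.035.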

Additional observations from a re-analysis of the deposited data

How the results depend on the processing

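All 4 members stayed higher in A549 and past the threshold under the 15 alternatives run for each. For GLIDR-201 there were 14, since the filter of at least 10 counts in 3 samples removed it. The authors had selected the table on these same samples, so this is not independent evidence. Of its 1437 transcripts, 1240 passed with column totals, the fewest apart from the count filter. The largest adjusted p was 0.0191, for GLIDR-201 with limma on log2(FPKM + 0.1). Leaving out 1 sample gave log2 fold changes of 3.28 to 4.62 for GLIDR-202, 2.70 to 3.77 for BX088651.4 long, 5.97 to 6.89 for GLIDR-201 and 6.61 to 7.52 for BX088651.4 short. Other scalings, tests and filters gave 3.02 to 5.38, 2.33 to 4.58, 0.83 to 7.47 and 1.61 to 8.06 in the same order. The fitted changes of the last 2 depend on the prior count. The summed log2 fold, 3.64, was 3.16 to 4.06 without 1 sample, 4.81 with column totals and 5.14 with DESeq2 size factors. The median of all log2 fold changes moved by 1.10 and 0.86 with these scalings and by 0.28 with TMM, and the cause was not tested. With 1 transcript per gene the chromosome 9 list held 2 higher transcripts. The number of calls, 1435, was 1408 to 1431 without 1 sample, and 941 with the count filter, since fewer transcripts were then tested. With the replicate number as a block, which the samples do not share beyond the number, there were 1342 calls and the log2 fold change of GLIDR-202 was 4.35. Below about 3 counts over a line no level could be resolved. Leaving out samples for the sum of each gene was chosen after seeing the data, as was leaving out A549 samples for the bounds.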
